A study of Mus musculus with 3 samples.

Results

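The regions described here are H3K9me3 regions of C2C12 myoblasts that each share bases with 2 or more KAP1 peaks. They numbered 1664 of the 39526 H3K9me3 regions, which is 4.21% of the list (95% Wilson interval 4.02 to 4.41). They were chosen by the positions of the KAP1 peaks and H3K9me3 regions alone, with an overlap of at least 1 bp as the only condition, so the number of KAP1 peaks in a region describes how the regions were chosen and is not a finding. A KAP1 peak of any number lay in 6101 regions (15.4%), and the regions with several made up 27.3% of those (interval 26.2 to 28.4). They held 4273 of the 19549 KAP1 peaks, or 21.9%.

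C2C12 is an established mouse muscle precursor line, here of strain C3H according to the labels, and the cells were proliferating in medium with fetal calf serum. Chromatin immunoprecipitation with sequencing gave 1 library for KAP1, made with a homemade rabbit polyclonal antibody, and 1 for H3K9me3, made with a Diagenode antibody. A library made without antibody has no region list used here. With 1 library per antibody in a single cell line there is no replicate, so values carry no spread between replicates and no test between conditions was possible. What the H3K9me3 score measures and which caller made that list were not stated in the labels. Read depth is not known from the lists, and the intervals given with shares and medians cover counting over regions only, which are not independent of their neighbours.

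KAP1, also named TRIM28, has no sequence-specific DNA binding of its own. KRAB zinc finger proteins, which recognise particular DNA sequences, recruit it, and it brings the methyltransferase SETDB1 that deposits H3K9me3, a mark of silenced chromatin. In mouse cells this pathway is best known for silencing endogenous retroviruses. An intact retroviral copy carries the same long terminal repeat (LTR) at either end and an internal part between them, so the distance between the outer KAP1 peaks of a region was examined for preferred values. No repeat map of the build of the files, mm9, was used here, so no region is called retroviral or anything else by its position.

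Most of the regions held a pair of KAP1 peaks. Exactly 2 peaks lay in 999 regions (60.0%), 3 in 436 (26.2%), 4 in 167 (10.0%), 5 in 46 (2.76%), 6 in 15 (0.901%) and 7 in 1. The least firm members were those in which a peak only touched the region. In 27 regions the least covered peak shared under 50 bp, and in 59 under 100 bp. The 3 smallest overlaps were 5 bp on chromosome 17 (73668895 to 73669890), 6 bp on chromosome 1 (34406751 to 34407871) and 9 bp on chromosome 19 (7895087 to 7895448). Just outside the rule lay 41 regions with 1 KAP1 peak inside and another within 100 bp of an edge. The closest missed by 1 bp on chromosome X (78893753 to 78896242), by 11 bp on chromosome 6 (47704130 to 47704311) and by 15 bp on chromosome 6 (149222105 to 149222943).

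The regions were wide. Their median width was 3847 bp (interval 3705 to 3973, interquartile range 2717 to 5328.5), against 1105 bp in the 4437 regions with 1 KAP1 peak and 540 bp in the 33425 regions with none. Though few, they made up 17.6% of the length that the H3K9me3 list covers, 7.01 of 39.7 Mb. A narrow region can hardly reach 2 peaks, so width is not independent of the rule. Width was greater with more peaks, with medians of 3073 bp for 2 peaks, 4547 bp for 3, 6649 bp for 4, 7056 bp for 5 and 7380 bp for 6. Over the 1664 regions, Spearman's rho of width and peak number was 0.575, a description of points that share both libraries.

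The widths of these regions fell into a broad group and a narrow one. Per 0.5 kb of width, the count of regions with several KAP1 peaks was highest at 206 from 3 to 3.5 kb and lower at most wider steps down to 41 from 6 to 6.5 kb. It then stood at 79 from 6.5 to 7 kb, 88 from 7 to 7.5 kb and 53 from 7.5 to 8 kb, and was 24 in the next bin. Regions with 4 or more peaks made up a large part of the narrow group. They were 45 of the 79 from 6.5 to 7 kb, 45 of the 88 from 7 to 7.5 kb and 23 of the 53 from 7.5 to 8 kb. The other regions showed no such second group. Those with 1 KAP1 peak numbered 11, 10, 8 and 4 in the 4 bins from 6 to 8 kb, and those with none 21, 14, 13 and 7. In steps of 0.25 kb, the whole H3K9me3 list held 34 regions from 6.25 to 6.5 kb and 65 from 6.75 to 7 kb, of which 22 and 49 were regions with several KAP1 peaks. Of all 276 regions from 6.5 to 8 kb wide, 220 held several KAP1 peaks, or 79.7% (interval 74.6 to 84.0), against 56.2% (interval 44.8 to 67.0) of the 73 regions from 6 to 6.5 kb. The share was 64.9% of the 37 regions from 8 to 8.5 kb, with an interval (48.8 to 78.2) that overlaps. The range from 6.5 to 8 kb was not among the planned settings.

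**Figure D1:**
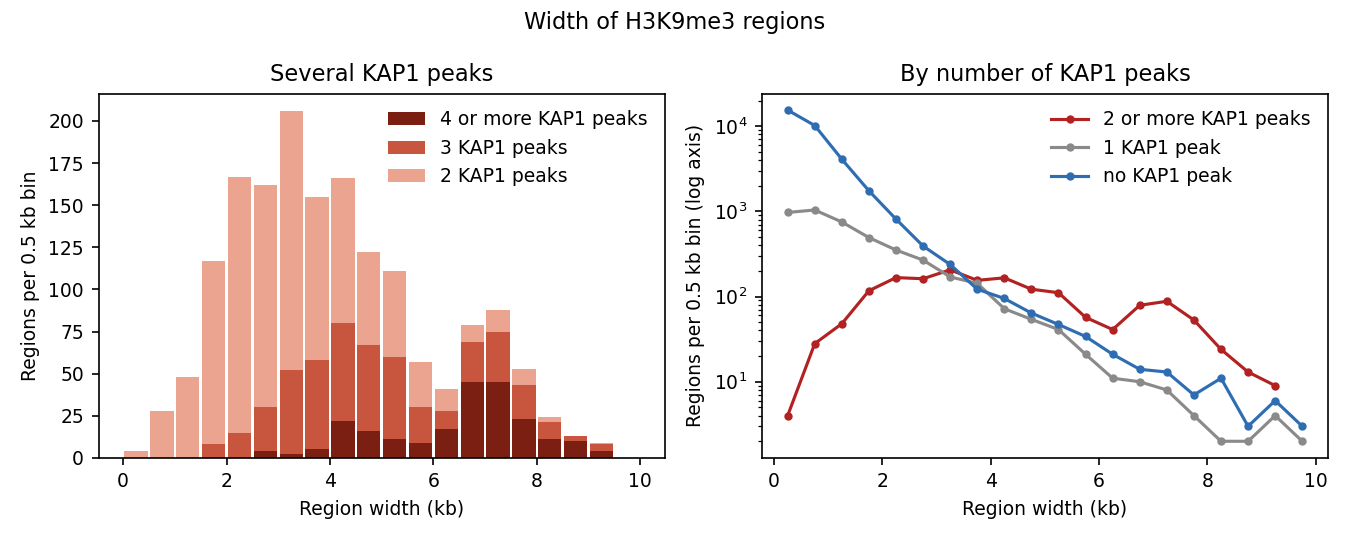
Counts of H3K9me3 regions per 0.5 kb of width, on the left for regions with several KAP1 peaks stacked by number of peaks and on the right, on a log axis, for regions with 2 or more, 1 or no KAP1 peak (bins with a count of 0 are not drawn). The regions with several KAP1 peaks have a second rise from 6.5 to 8 kb that the other lines lack.

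The H3K9me3 score, the authors' own value for each region, was 337 at the median with several KAP1 peaks, against 97 with 1 and 47 with none. Per kb of width the medians were close, at 88.0 with several KAP1 peaks (interval 87.4 to 88.6), 90.1 with 1 (interval 89.7 to 90.6) and 90.9 with none (interval 90.6 to 91.1). Among regions 3 to 4 kb wide, the median score was 307 in 361 regions with several KAP1 peaks (interval 301 to 311), 307 in 313 regions with 1 (interval 298 to 313) and 293 in 360 regions with none (interval 287 to 299). From 6.5 to 8 kb it was 613 with several peaks (interval 606 to 624), 641.5 in 22 regions with 1 (interval 585 to 829) and 677.5 in 34 regions with none (interval 616 to 762). Regions with several peaks thus stood above those with none in the lower width range and below them, with intervals that overlap, in the higher. Widths were not matched within a range. From 3.5 to 4 kb wide were 155 of the 361 regions with several peaks and 122 of the 360 with none. The part of width in the difference of scores was not tested. KAP1 peaks covered a median of 54.6% of the region (interquartile range 42.1 to 69.6), and 46.6% in regions with 1 peak. The KAP1 peaks inside the regions had a median width of 802 bp.

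Neighbouring KAP1 peaks inside a region stood about 1.5 kb apart. Over the 2637 neighbouring pairs that shared a region, the median distance from midpoint to midpoint was 1485.5 bp (interval 1455.5 to 1521.5, interquartile range 1110 to 2106.5). Of the 0.5 kb bins, that from 1 to 1.5 kb was the fullest, with 834 pairs or 31.6% (interval 29.9 to 33.4). The bins on either side held 496 and 567. Up to 2 kb apart were 72.2% of the pairs, and 10.6% were 3 kb or more apart. Among the 5226 neighbouring KAP1 pairs within 20 kb that shared no region, the median was 3487.5 bp, the same bin was also the fullest but held 11.3%, and 56.5% were 3 kb or more apart. Pairs in which the peaks lay in different H3K9me3 regions had a median of 3238 bp over 1198 pairs, and their fullest bin was from 2 to 2.5 kb with 137. Since a pair inside a region cannot be much farther apart than the region is wide, the shorter distances follow in part from the rule.

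Many neighbouring peaks nearly adjoined. The gap between the facing edges of neighbouring peaks in a region was 511 bp at the median, and as short as 1 bp. It was 200 bp or less in 28.4% of the pairs (interval 26.8 to 30.2), against 9.01% of pairs that shared no region. When KAP1 peaks within 500 bp of each other were joined, 1085 regions still held several peaks, the median distance was 2432 bp and the fullest bin moved to 1.5 to 2 kb with 23.1%. The fullest bin thus differed between separate and joined peaks.

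Distances between 5 and 8 kb, a range set for full-length mouse endogenous retroviruses, were uncommon between the peaks of a pair. They were found in 15 of the 999 regions with exactly 2 KAP1 peaks, or 1.5% (interval 0.912 to 2.46), against 603 of the 5226 neighbouring pairs that shared no region (11.5%, interval 10.7 to 12.4). Width limits this contrast. The upper quartile of width in regions with exactly 2 peaks was 4112.5 bp, so most could hardly hold such a distance. Pairs that shared no region had no such limit. The lower share therefore does not show that these distances are avoided inside regions. The share in regions with exactly 2 peaks was 5.99% with only the higher-scoring 50% of KAP1 peaks. It was 5.90% with KAP1 peaks within 500 bp joined and 4.56% with H3K9me3 regions within 1 kb joined. Taken between the first and the last peak of every region, distances from 5 to 8 kb were found in 234 of 1664, or 14.1% (interval 12.5 to 15.8). They grew more common with the number of peaks, from 17.4% of regions with 3 KAP1 peaks through 54.5% with 4 and 82.6% with 5 to 14 of the 15 regions with 6. The outermost distance adds up the distances between neighbours, whose median was 1492.5 bp with 3 peaks, 1434.5 bp with 4, 1257.75 bp with 5 and 1148 bp with 6. Width was also greater with more peaks. The parts of peak number and of width in this rise were not tested.

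The distance between the outermost peaks had a second rise, with few values beyond 6.5 kb. Per 0.5 kb bin, the number of regions was 52 from 4.5 to 5 kb, 60 from 5 to 5.5 kb, 67 from 5.5 to 6 kb and 99 from 6 to 6.5 kb. From 6.5 to 7 kb it was 4, and no later bin held more than 2. In steps of 100 bp, the 5 bins from 6.0 to 6.5 kb held 26, 18, 19, 24 and 12 regions, and the next 5 held 2, 1, 1, 0 and 0. The bin from 6 to 6.5 kb was picked out after this distribution was seen, and its 99 regions (5.95%, interval 4.91 to 7.19) are described without a test. With H3K9me3 regions within 1 kb of each other joined, the bin held 12.4% of the regions with several KAP1 peaks and 8 lay from 6.5 to 7 kb. With KAP1 peaks within 500 bp joined, it held 3.32%, and 2 lay from 6.5 to 7 kb. Measured from start to start of the peaks, it held 6.31%, and 10 lay from 6.5 to 7 kb.

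**Figure D2:**
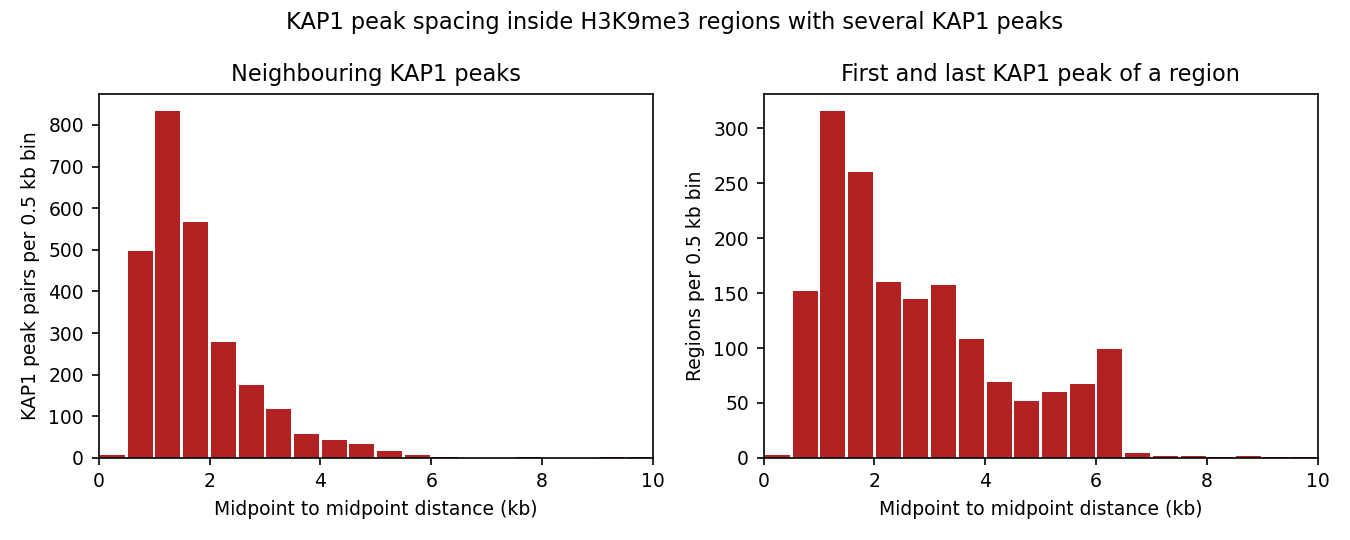
Distances between the midpoints of neighbouring KAP1 peaks (left, pairs per 0.5 kb bin) and between the first and last KAP1 peak of a region (right, regions per 0.5 kb bin) in H3K9me3 regions with several KAP1 peaks, drawn up to 10 kb. Neighbours are most often 1 to 1.5 kb apart, and the outermost distances rise to 99 regions from 6 to 6.5 kb before falling to 4 in the next bin.

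The same edge was present between KAP1 peaks of different H3K9me3 regions. Over all pairs of KAP1 peaks, neighbours or not, 107 pairs in the same region were 6.0 to 6.5 kb apart and 7 were 6.5 to 7.0 kb apart, a ratio of 15.3. Where the peaks lay in different H3K9me3 regions, these counts were 232 and 26, a ratio of 8.92. Where at least 1 of the peaks lay in no H3K9me3 region, they were 272 and 192, a ratio of 1.42. Pairs share peaks with one another and with the regions counted above, so these counts are not over independent units.

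The 99 regions with outermost peaks 6.0 to 6.5 kb apart lay in a limited range of width, which follows largely from their choice by distance. Their median width was 7319 bp (interquartile range 6967 to 7745.5) and their median H3K9me3 score 621 (576 to 703.5). Only 3 of them held 2 KAP1 peaks, while 23 held 3, 42 held 4, 19 held 5 and 12 held 6. The first peak's midpoint lay a median of 559.5 bp inside the lower end of the region and the last peak's 483 bp inside the upper end. The outermost peaks scored a median of 207 (interquartile range 146 to 278) and the 212 peaks between them 120 (88.6 to 178). The inner peaks had no single place, at 569 to 3092.5 bp from the nearer outermost peak with a median of 1663 bp. The 99 regions lay on 20 chromosomes, with at most 9 on a single one, chromosome 2.

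Outer peaks scored higher than inner ones in most regions with 3, 4 or 5 KAP1 peaks. The KAP1 score is the authors' own value for each peak, no lower than 70 in the list, and is used here only to compare peaks within it. In regions with 3 peaks, the median scores in order of position were 182, 121 and 212. With 4 peaks they were 208, 115, 114 and 203, and with 5 peaks 208, 123, 96.6, 115 and 229. In each group the ends were high and the middle low. The mean score of the outermost peaks was above that of the inner ones in 346 of 436 regions with 3 peaks (79.4%, interval 75.3 to 82.9), in 133 of 167 with 4 (79.6%, interval 72.9 to 85.0) and in 39 of 46 with 5 (84.8%, interval 71.8 to 92.4). With KAP1 peaks within 500 bp joined, the share in regions with 4 peaks was 68.2% (interval 47.3 to 83.6). The median ratio of the outer to the inner mean was 1.67, 1.59 and 1.68 in these groups. The highest peak was an outermost peak in 85.1%, 75.4% and 67.4% of the regions, where outermost peaks are 66.7%, 50.0% and 40.0% of the peaks. Inner peaks that scored below 70, if there were any, would not be in the list.

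**Figure D3:**
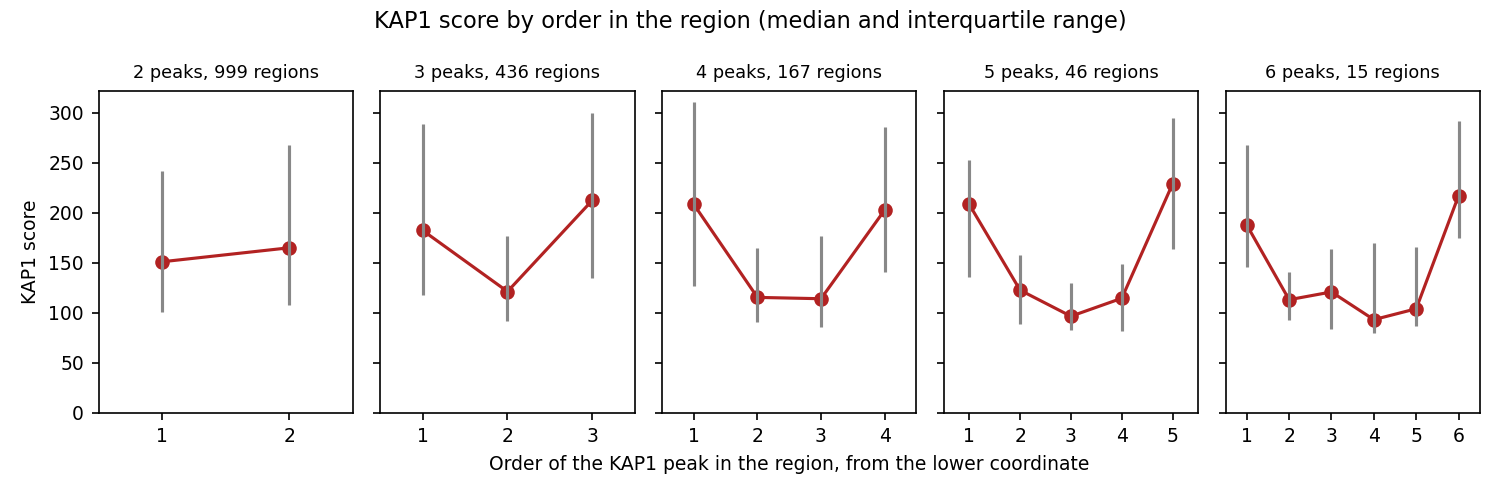
KAP1 score by order of the peak along the region, for H3K9me3 regions with 2 to 6 KAP1 peaks; points are medians over regions and bars are interquartile ranges. From 3 peaks on, the first and last peaks have the highest medians, for example 208 and 229 at the ends and 96.6 in the middle of regions with 5.

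The same form appeared along the width of the region. In the 220 regions from 6.5 to 8 kb wide, 110 of the 789 KAP1 midpoints lay in the lowest 10% of the width and 138 in the highest 10%. The steps of 10% on either side of the centre held 48 and 47. The median score was 258 from 10 to 20% of the width and 269 from 80 to 90%, and 103 and 93.7 in the central steps. In regions from 2 to 3.5 kb wide, the lowest and highest 10% of the width held 7.93% and 12.6% of midpoints, against 13.9% and 17.5% in the wider regions. The steps from 10 to 20% and from 80 to 90% held 11.2% and 12.7%, against 10.1% and 9.51%. The central steps held 6.91% and 7.16%, against 6.08% and 5.96%. The end steps were thus less full in the narrower regions. The steps from 20 to 30% and from 60 to 70% were also less full there, and all remaining steps were fuller. Midpoints outside a region fall in no step. The median score in the narrower regions ranged from 128 to 195 over the steps.

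**Figure D4:**
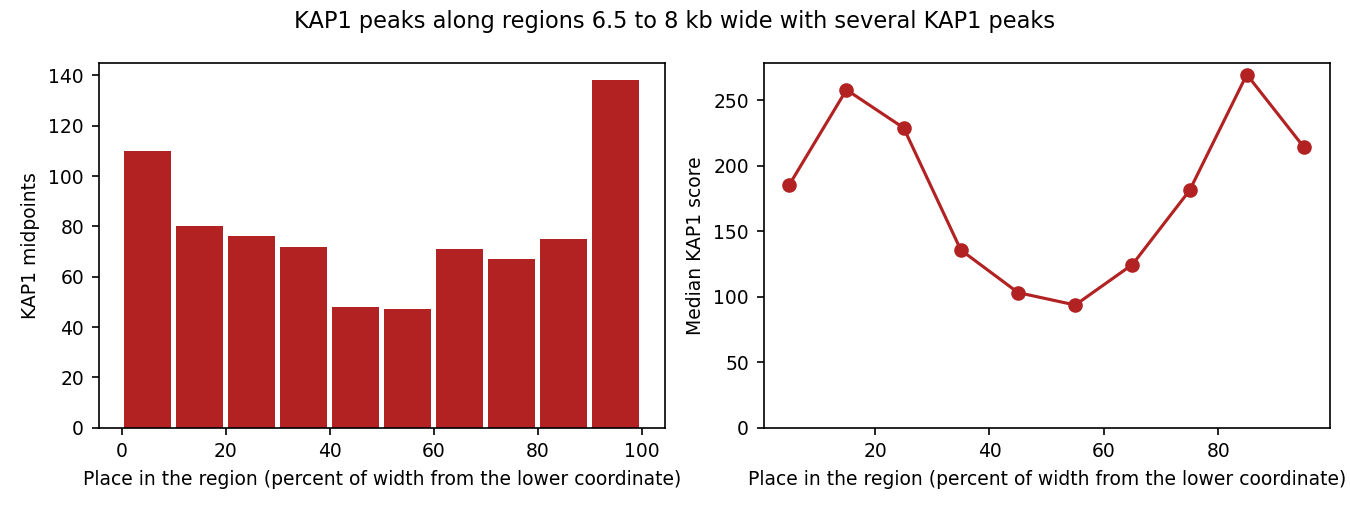
KAP1 peaks along the 220 H3K9me3 regions from 6.5 to 8 kb wide with several KAP1 peaks, in steps of 10% of the region's width: number of KAP1 midpoints (left) and their median score (right). Midpoints are most frequent at the ends, 110 and 138 against 48 and 47 at the centre, and the score is lowest at the centre.

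Pairs of KAP1 peaks usually stood on opposite sides of the region's centre. Of the 999 regions with exactly 2 KAP1 peaks, 866 had the centre between the peak midpoints, or 86.7% (interval 84.4 to 88.7). The 2 peaks do not overlap and covered a median of 52.1% of the region, so many pairs could hardly lie on 1 side. The share that follows from this alone was not computed. The point midway between the peaks was off the centre by a median of 9.93% of the width (interval 9.24 to 10.6). In regions with 1 KAP1 peak that peak was off by 26.6% (interval 25.8 to 27.7). At widths of 2 to 5 kb the values were 9.33% for the pair and 22.0% for the only peak. A point between 2 peaks is an average and tends to lie closer to the centre than a single peak, and this was not separated from the placing of the peaks. The pair spanned a median of 58.2% of the width, and the outermost peaks spanned 74.9% with 3 peaks, 81.2% with 4 and 84.6% with 5. A larger number of peaks tends to span more of the width by itself.

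KAP1 peaks lay slightly toward the higher coordinate of the H3K9me3 regions throughout. The middle of the pair was 74 bp above the region centre at the median (interval 50.5 to 113.25), and above it in 58.3% of regions with 2 KAP1 peaks (interval 55.2 to 61.3). In regions with 1 peak the shift was 46.5 bp (interval 35 to 56.5). It was 26 bp (interval 16 to 38) where the KAP1 midpoint had to lie inside the region and 31 bp (interval 18.5 to 45.5) where 50% of the peak had to be covered. Likewise the first peak began before the region in 34.4% of the 1664 regions, while the last peak ended after it in 51.8%. The cause of this shift was not tested. The distances between KAP1 peaks come from a single list, so their lengths do not depend on this shift. Which pairs are counted in a region can depend on it, and distances to a region's ends do.

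The peaks of a pair were often unequal in score. In regions with exactly 2 KAP1 peaks, the higher score was a median of 1.70 times the lower (interval 1.63 to 1.77), with a median of 235 for the higher and 112 for the lower peak. Neighbouring pairs that shared no region had a ratio of 1.44 (interval 1.42 to 1.46), pairs in different H3K9me3 regions 1.61 (interval 1.56 to 1.68, which overlaps that of the pairs in a region) and pairs with neither peak in H3K9me3 1.37 (interval 1.34 to 1.38). The ratio was over 2 in 38.7% of the pairs in a region and under 1.1 in 10.5%, against 27.2% and 16.2% of the pairs that shared no region. The scores themselves had a median of 158 inside the regions and 106 in the whole list, and the part of this level in the ratios was not tested.

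The median ratio was lowest for the closest peaks, with an interval that overlaps those of some wider distances. The median ratio was 1.49 (interval 1.37 to 1.61) for pairs under 1 kb apart, 1.64 from 1 to 1.5 kb, 1.78 from 1.5 to 2 kb and 1.90 (interval 1.76 to 2.23) from 2 to 3 kb. It was 1.69 (interval 1.51 to 1.94) from 3 to 5 kb and 2.23 (interval 1.53 to 4.24) over the 18 pairs 5 kb or more apart, so the ratio did not follow the distance throughout. The 99 regions with outermost peaks 6.0 to 6.5 kb apart had a ratio of 1.48 between these peaks (interval 1.40 to 1.61), against 1.88 (interval 1.77 to 1.99) in the 557 regions with 3 or more peaks whose outermost peaks were less than 6.0 kb apart. The groups differ in number of peaks, and the ratio of the outermost peaks was 1.91 in all regions with 3 peaks, 1.80 with 4 and 1.5 with 5. The distance was also picked out after the data were seen. Across the regions with 2 peaks, the scores of the lower and upper peak had a Spearman's rho of 0.0606, and neighbouring pairs that shared no region 0.224. The higher peak was the wider in 71.2% of the pairs and the nearer to the centre in 52.6% (interval 49.5 to 55.6).

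The single region with 7 KAP1 peaks lay on chromosome 9 at 119769693 to 119784779. It was 15087 bp wide with an H3K9me3 score of 1320, and its peaks scored 195, 155, 85.6, 676, 286, 106 and 317 in order. Its midpoints lay 1119.5, 6805.5, 7442, 9246.5, 11426, 13136 and 14349.5 bp from the start, so that the first peak stood well apart from the others. The 15 regions with 6 peaks were narrower, from 6208 to 9021 bp. On chromosome 3 from position 158290496 to 158298014, 6 peaks scored 320, 132, 167, 80.3, 79.7 and 222 over an outermost distance of 6309 bp. On chromosome 16 at 79368921 to 79376200 they scored 137, 113, 92.4, 91.3, 173 and 166 over 6479.5 bp. Both had their lowest scores at inner peaks. On chromosome 8 at 109007958 to 109016978, the widest region with 6 peaks, the outermost peaks were 8759 bp apart and the highest score, 444, was that of the second peak. The others named by their number of peaks were on chromosome 4 at 123447848 to 123455832 (outermost distance 6156.5 bp), chromosome 10 at 122269750 to 122278032 (5890.5 bp), chromosome 3 at 152464091 to 152472116 (6124 bp) and 68535908 to 68543287 (6169.5 bp), and chromosome 16 at 89162280 to 89169575 (6227.5 bp) and 41195322 to 41202232 (6349 bp). With KAP1 peaks within 500 bp joined, the region with 7 peaks held 3, and the chromosome 16 region from 89162280 held 1.

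The regions with the highest H3K9me3 scores were of another form. They held 2 to 4 KAP1 peaks, which stood in a limited part of the region. The first, on chromosome 7 at 30916826 to 30953102, was 36277 bp wide with a score of 4360 and held 2 peaks of scores 528 and 80.8, 9629.5 bp apart and both above the middle. On chromosome 17 at 17270764 to 17289868, 19105 bp held 2 peaks 1110 bp apart, with scores of 108 and 542. On chromosome 13 at 62760547 to 62782966, the 4 peaks of a region of 22420 bp lay within its first 4787.5 bp by midpoint. Chromosome 15 at 76002796 to 76017295 held 3 peaks over 5505 bp of 14500 bp. On chromosome 12 at 114010194 to 114017507, 3 strong peaks with scores of 887, 763 and 404 stood in the upper part of 7314 bp. With KAP1 peaks within 500 bp joined, the chromosome 17 and chromosome 12 regions held 1 peak each and the chromosome 13 region held 2.

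Among pairs 1 to 1.5 kb apart, the 5 with the highest lower score are described here, a choice that favours even pairs. On chromosome 9 at 32760682 to 32763565 the peaks scored 424 and 464, and in a region of chromosome 10 at 95659108 to 95662262 they scored 395 and 412. The pair at 104927459 to 104933988 of chromosome 1 scored 398 and 460, and the first 2 of 4 peaks at 64979724 to 64983796 of chromosome 13 scored 397 and 376. The last of the 5 was the second and last peak of the chromosome 12 region, at 763 and 404. With KAP1 peaks within 500 bp joined, each of these 5 regions held 1 peak. Among regions with exactly 2 KAP1 peaks, the most unequal pair was on chromosome 10 at 23592871 to 23598144, where scores of 75.1 and 916 gave a ratio of 12.2. It was followed by chromosome X at 65650691 to 65654567 (825 and 84.7, a ratio of 9.74) and chromosome 10 at 71154140 to 71157368 (684 and 71.9, a ratio of 9.51). These 3 regions held 1 peak each when only the higher-scoring 50% of KAP1 peaks were kept. Most even among regions with exactly 2 peaks were a pair on chromosome 14 at 80835987 to 80838726 (123.02 and 122.91), one on chromosome 19 at 39677971 to 39681380 (371.33 and 371.71) and one on chromosome 1 at 144252850 to 144256153 (98.49 and 98.68). Even scores thus occurred at both low and high levels.

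The surroundings differed with the number of peaks. Regions with 3 or more KAP1 peaks lay a median of 10.2 kb from the next H3K9me3 region (interval 7.61 to 13.6), and regions with exactly 2 lay 1.15 kb away (interval 1.02 to 1.28). For regions with 1 KAP1 peak the value was 2.30 kb and for those with none 8.52 kb. Another H3K9me3 region lay within 1 kb of 25.4% of regions with 3 or more peaks and 46.0% of those with 2, against 36.1% with 1 and 19.3% with none. A further KAP1 peak stood outside the region but within 1 kb of it at 19.1% of the regions with several peaks and 16.4% of those with 1.

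The regions were spread over the genome. They were found on chromosomes 1 to 19 and X, and at none of the 26 H3K9me3 regions of chromosome Y, for which the upper Wilson bound was 12.9%. At least 1 lay in 1151 of the 2579 windows of 1 Mb that hold H3K9me3, and in 777 of these windows it was alone. The nearest other such region was a median of 434 kb away. Some lay close together, as 421 (25.3%) had another within 100 kb and 274 (16.5%) within 10 kb. Only 7 windows held 5 or more, 38 regions in all. The fullest was from 8 to 9 Mb on chromosome 7, where 7 of 12 H3K9me3 regions held several KAP1 peaks, followed by 89 to 90 Mb on chromosome X with 6 of 23. The next by position among those with 5 was 5 to 6 Mb on chromosome 4 with 5 of 29.

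As a share of a chromosome's H3K9me3 regions, they were most frequent on chromosome 14, with 96 of 1534 (6.26%, interval 5.15 to 7.58). Chromosomes 16 (6.005%, interval 4.80 to 7.50), 9 (5.93%, interval 4.78 to 7.33) and 7 (5.84%, interval 4.80 to 7.09) stood next, and their intervals overlap. The lowest share was on chromosome 15, with 62 of 2941 (2.11%, interval 1.65 to 2.69), below chromosome 12 at 2.92% (interval 2.27 to 3.74). Per Mb the order was different. Chromosome 15 held 0.617 such regions per Mb against 0.645 over all chromosomes, so its low share went with its large number of other H3K9me3 regions. Chromosome 17 had the most per Mb (0.835) and chromosome 19 the fewest of those with any (0.497). The median width per chromosome ranged from 3278 bp on chromosome 9 to 4595.5 bp on chromosome 18.

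**Figure D5:**
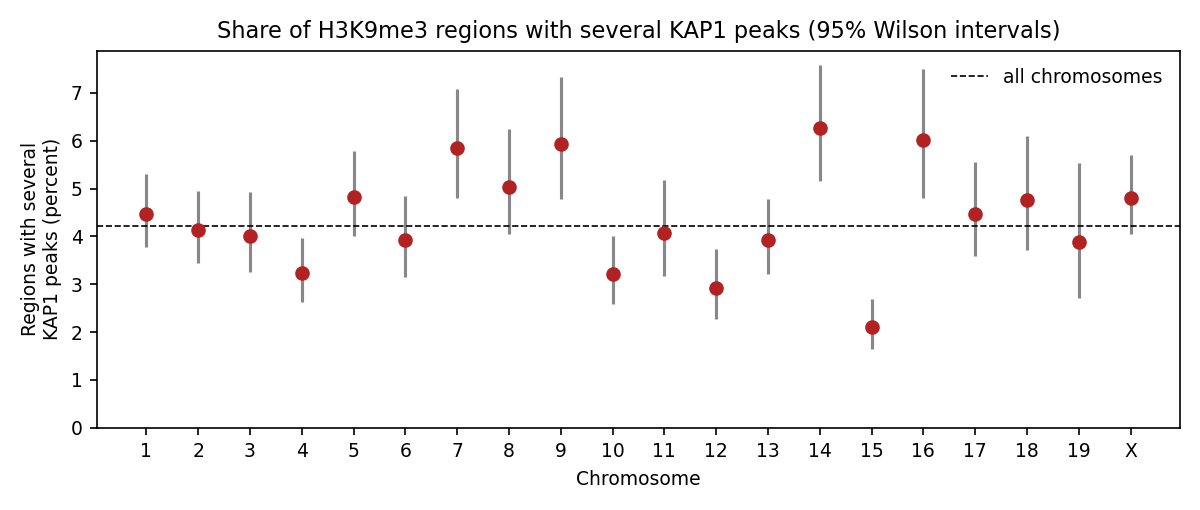
Share of each chromosome's H3K9me3 regions that hold several KAP1 peaks, in percent with 95% Wilson intervals, and the share over all chromosomes (4.21%, dashed); chromosome Y, with 26 regions, is not drawn. Chromosome 15 is lowest at 2.11% and chromosome 14 highest at 6.26%.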

How the data were processed

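KAP1 and H3K9me3 were mapped in 1 library each. Per the submitters' processing notes, reads were handled with Bowtie2 2.2.1 and the mm9 build. The lists the authors deposited give positions and a score for every region; neither the meaning of these scores, nor the H3K9me3 caller, nor any setting, nor how the library without antibody served is given in the sources used here. Names in the deposited KAP1 list have the form that MACS writes. No genome, repeat map or gene annotation of mm9 was used, so no sequence or gene is given. Positions are counted from 1, with starts in the lists read as counted from 0.

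Overlap needed 1 bp, and spacing ran between peak midpoints. Medians have 95% intervals from binomial order statistics and shares 95% Wilson intervals. The computation was tested on simulated lists. Named regions were the 10 with the most KAP1 peaks, the 5 with the highest H3K9me3 score, the 5 pairs from 1 to 1.5 kb apart with the highest lower score, the 3 most and 3 least unequal pairs, 3 on either side of the rule and the 3 fullest windows. The most and least unequal pairs were taken from regions with exactly 2 KAP1 peaks. The regions and measures were chosen with earlier results of these data known. Alternatives were other overlap limits, score limits, joined regions or peaks, autosomes alone, other bins and start distances. Python 3.11.15, numpy 2.4.6, pandas 2.3.3, scipy 1.17.1 and matplotlib 3.10.9 were used.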

Additional observations from a re-analysis of the deposited data

How the results depend on the processing

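Values with 50% of the KAP1 peak covered, or with its midpoint inside, were alike. 1485 regions held several peaks, the middle of a pair was 8.37% of the width off centre and the median width was 4061 bp. With only the higher-scoring 50% of KAP1 peaks, neighbours were 1704.5 bp apart, 5.99% of pairs were 5 to 8 kb apart, 82.9% had the centre between them, the pair was 8.93% off centre, the score ratio was 1.61, the width 4319.5 bp, the share on chromosome 14 4.95% and the share of outermost distances from 6.0 to 6.5 kb 7.24%. With only the higher-scoring 50% of H3K9me3 regions, the share on chromosome 14 was 13.2%, over fewer regions in all.

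With H3K9me3 regions within 1 kb joined, the spacing was 1612 bp, the fullest bin held 28.1%, 4.56% of pairs were 5 to 8 kb apart, the pair was 8.35% off centre, the width was 4888 bp, chromosome 14 stood at 7.66% and outermost distances from 6.0 to 6.5 kb at 12.4%. With KAP1 peaks within 500 bp joined, 1085 regions remained, all of them among the 1664. The spacing was 2432 bp, the fullest bin held 23.1%, 5.90% of pairs were 5 to 8 kb apart, 95.6% had the centre between them, the pair was 7.94% off centre, the ratio was 1.78, the width 4527 bp, chromosome 14 stood at 4.11% and outermost distances from 6.0 to 6.5 kb at 3.32%.

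Start to start, neighbours were 1522 bp apart. The fullest bin held 16.5% in bins of 250 bp, 53.1% in bins of 1000 bp and 29.2% in bins shifted by 250 bp. Outermost pairs of every region were 5 to 8 kb apart in 14.1%, and the highest peak scored 2.16 times the lowest. Chromosome 14 had the highest share under every alternative run. In 1 of these the 1 Mb windows with 5 or more such regions were left out. No such window lay on chromosome 14, so its share could not change there. Another 53 values stayed within the interval of the reported value, or within 1.5 times it for counts. Among them were that share, all values on autosomes alone and all those without the 1% highest KAP1 scores. Leaving out the 1% highest KAP1 scores removed no peak of these regions, whose highest score was 1839, and so bears on none of their values. The outermost bin, the order of scores and the shift of positions were examined after the data were seen. For the peak numbers of the named regions and the values added later, 44 moved by more and 121 did not; the cause was not tested. Unknown depth limits what a missing peak can show. No paired analysis was possible because each antibody has a single library, so no replicate could be left out either.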

Other observations

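Some KAP1 peaks reach more than 1 H3K9me3 region. There were 115 such peaks in the list, and 103 of the 1664 regions with several KAP1 peaks held at least 1 of them. At the ends of the 1664 regions, the midpoint of the first KAP1 peak lay outside the region in 109 (6.55%, interval 5.46 to 7.84) and that of the last peak in 149 (8.95%, interval 7.68 to 10.4).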
